A study of Mus musculus with 2 samples.

Results

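The translation initiation factor genes described here were the protein-coding genes whose GENCODE mouse symbol begins with Eif and a digit from 1 to 6. The symbols Eif1ax, Eif2s3x and Eif2s3y were left out by that definition. This gave 52 genes among 43346 Ensembl gene rows, or 52 of 21474 protein-coding genes, and they lay on 18 chromosomes. The definition uses no measured value. Total RNA longer than 200 nt was sequenced from limb tissue of mouse embryos of strain B6NCrl at embryonic day 10.5. Replicate 1 pooled limbs of 69 embryos and replicate 2 of 51, each with both sexes, and 10 ng of RNA entered each library together with spike-in RNAs. No treatment or genetic change was labelled, and a healthy state was labelled for replicate 2 alone. The labels name 1 group and no contrast, so levels were described within the tissue and the 2 pools were compared with each other.

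In initiation, eIF2 with GTP carries the initiator tRNA to the small ribosomal subunit, where eIF1, eIF1A, eIF3 and eIF5 hold the complex that scans for a start codon. The mRNA is brought in by eIF4F, in which eIF4E binds the cap, eIF4G is the scaffold and the helicase eIF4A unwinds the leader. eIF4E-binding proteins under control of mTOR keep eIF4G from joining eIF4E. Kinases that phosphorylate the alpha subunit of eIF2 block its recycling by eIF2B. These steps are used in every growing tissue, and transcript levels do not report the phosphorylation that controls them.

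Expected counts (estimated reads per gene) summed to 40509328 in replicate 1 and 43983028 in replicate 2, of which spike-ins took 3.89% and 3.45%. All 7 limb markers, among them Msx1 and Prrx1, were at 1 TPM or more, and 0 of 5 neural tube markers reached that level. Red cell markers were abundant, with summed levels of 11746 and 9565 TPM. Muscle markers summed to 21.5 and 73.6 TPM, and all 5 were at least 1.5-fold higher in replicate 2.

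Transcripts of initiation factors were abundant. TPM is an abundance corrected for transcript length and scaled to a fixed total, so levels can be compared between genes, and a gene was called expressed at 1 TPM or more in both libraries. By that measure 51 of 52 factors were expressed, where 55.2% of all protein-coding genes were. The exception was Eif4e1b, an eIF4E paralog known from oocytes, to which no read was assigned in either library. The median factor stood at 112 TPM (115 in replicate 1 and 114 in replicate 2 when each library was taken alone), and the median expressed protein-coding gene at 21.3 TPM. Of the 52, 24 were in the top 10% of expressed protein-coding genes, which began at 138 TPM, and 7 expressed factors lay below the median of those genes (Eif2ak2, Eif2ak3, Eif2ak4, Eif3j1, Eif4e3, Eif4ebp3 and Eif5a2). Together the factors took 1.53% and 1.38% of Ensembl gene counts.

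**Figure D1:**
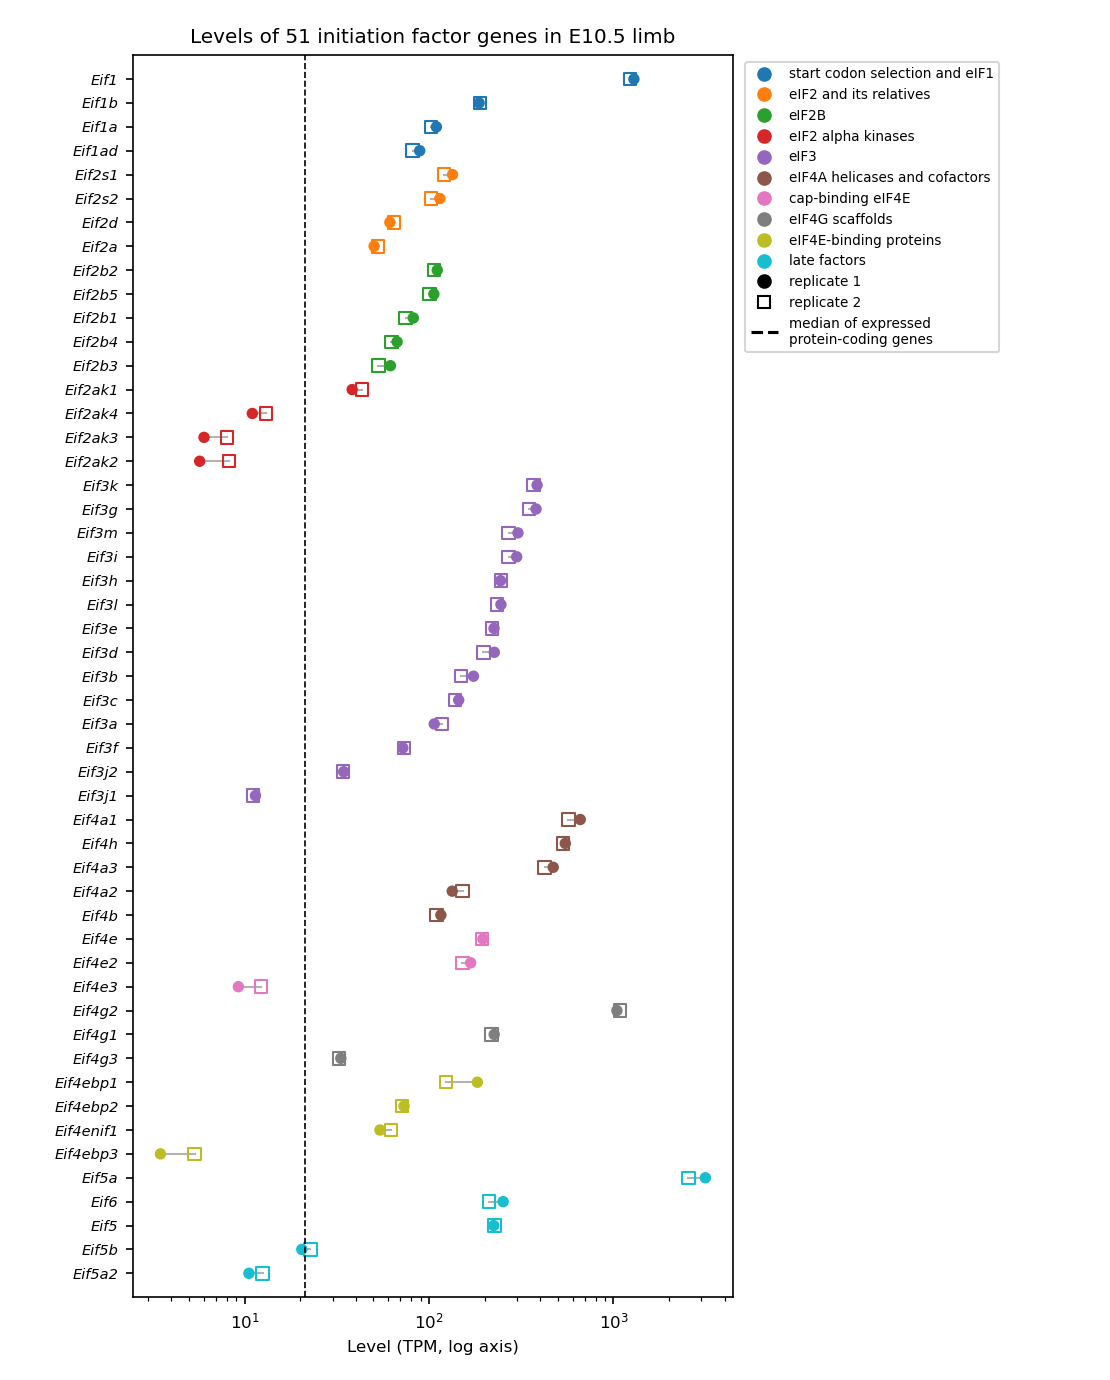
Level of the 51 factors with counts (TPM, log axis), ordered by role and then by level. Filled circles are replicate 1, open squares replicate 2 and the dashed line the median of expressed protein-coding genes at 21.3 TPM. Levels include transcripts annotated as noncoding. Eif5a, Eif1 and Eif4g2 stand apart at the right, and the eIF2 alpha kinases other than Eif2ak1 lie to the left of the line.

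The levels were unequal among the factors. Eif5a, Eif1 and Eif4g2 together held 42.3% of the factors' summed TPM in replicate 1 and 41.0% in replicate 2. The place of Eif1 among them rests on transcripts annotated as noncoding. Its protein-coding transcripts alone summed to a mean of 513 TPM, below those of Eif4a1 (579 TPM) and Eif4h (540 TPM). Across the 51 expressed factors, level and effective length ran in opposite directions, with a Spearman coefficient of -0.47, and over 11853 expressed protein-coding genes it was -0.29. These points share libraries and the length that enters the TPM itself.

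Among the factors that select the start codon, Eif1 was the most abundant at 1290.5 TPM in replicate 1 and 1231 in replicate 2. eIF1 guards against initiation at poor codons. Its paralog Eif1b stood at 187 and 189 TPM, so Eif1 was 6.72-fold higher (log2 ratio 2.75 ± 0.058, SD, n = 2). Eif1a, encoding the partner that keeps the scanning complex open, was at 109.6 and 103 TPM, 11.9-fold below Eif1 (log2 ratio 3.57 ± 0.019). Eif1ad, an eIF1A-like gene, was the lowest of this group at 89.0 and 81.5 TPM. The ratios of Eif1 to Eif1b and to Eif1a shrank when protein-coding transcripts alone were summed, to log2 1.45 and 2.27, because a large part of the Eif1 level was assigned to transcripts annotated as noncoding.

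The eIF2 subunit genes were near each other. Eif2s1, encoding the alpha subunit that the kinases modify, stood at 134 and 120.4 TPM. Eif2s2, encoding the beta subunit, stood at 114 and 103 TPM, which put Eif2s1 1.17-fold higher with intervals apart in both libraries. The intervals used for such calls are the deposited bounds that accompany the posterior mean TPM. They need not hold the TPM printed here, which lay outside them in both libraries for 14 factors, Eif2s1 among them. The 5 subunits of eIF2B, the exchange factor that recharges eIF2 with GTP, spanned 57.5 TPM (Eif2b3) to 109 TPM (Eif2b2), a range of 1.89-fold. Its catalytic subunit gene Eif2b5 stood at 106 and 100.7 TPM, and Eif2s1 was 1.23-fold above it.

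The 2 noncanonical factors Eif2d and Eif2a, which can deliver tRNA without eIF2, were lower. Eif2d was at 61.4 and 64.5 TPM and Eif2a at 50.4 and 52.8 TPM, a ratio of 1.22-fold. With protein-coding transcripts alone the log2 ratio rose from 0.29 to 1.07.

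The kinases that phosphorylate eIF2 alpha were among the least abundant factors. Eif2ak1, the heme-regulated kinase, stood at 38.3 TPM in replicate 1 and 43.3 in replicate 2. Eif2ak4, which senses uncharged tRNA, stood at 11.0 and 13.1 TPM. Eif2ak1 was 3.40-fold above it. Eif2ak3, the kinase of endoplasmic reticulum stress, was at 6.03 and 8.03 TPM, and Eif2ak2, the kinase that responds to double-stranded RNA, at 5.71 and 8.24 TPM. Eif2ak1 was 5.94-fold above Eif2ak2 (log2 ratio 2.57 ± 0.25), and with protein-coding transcripts alone the log2 ratio was 3.38. In bulk tissue, expression in fewer cells and less RNA per cell cannot be told apart. Red cell markers were abundant in the same libraries, and their part in the Eif2ak1 level was not tested.

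Genes of eIF3, the largest initiation complex, were spread over a several-fold range. Without Eif3j1 and Eif3j2, which encode the loosely held j subunit, the 12 subunits ranged from 72.8 TPM (Eif3f) to 377 TPM (Eif3k), a span of 5.19-fold with a median of 231 TPM, and 11 of the 12 lay between 100 and 400 TPM. Eif3k was at 385 and 369 TPM and Eif3g, an RNA-binding subunit, at 381 and 348 TPM. The scaffold subunit genes Eif3a (107 and 118 TPM), Eif3c (145 and 138 TPM) and Eif3b (174 and 149 TPM) were in the lower part of that range. Eif3f stood at 72.2 and 73.4 TPM. The j subunit has 2 near-identical genes: Eif3j1 was at 11.5 and 11.1 TPM and Eif3j2 at 34.5 and 34.1 TPM, a ratio of 3.04-fold. Reads of this pair are divided by estimate, with a posterior SD of the count of 2.54% and 2.50% for Eif3j1, so their sum of 45.9 and 45.2 TPM is the firmer value.

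For the eIF4F complex, the helicase gene Eif4a1 stood at 661 and 569.6 TPM, and its paralog Eif4a2 at 134 and 152 TPM. Eif4a1 was 4.30-fold higher (log2 ratio 2.11 ± 0.28), and log2 3.65 higher when protein-coding transcripts alone were summed. The processed pseudogene Eif4a-ps4 was listed at 23.5 and 19.6 TPM, and reads were divided between it and Eif4a1 by estimate. Eif4a3, whose helicase serves the exon junction complex rather than initiation, stood at 471 and 424 TPM. The helicase cofactor genes differed: Eif4h was at 548 and 532 TPM and Eif4b at 116 and 109.6 TPM, a ratio of 4.79-fold.

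Eif4g2, encoding the relative of eIF4G that lacks the eIF4E-binding region, stood at 1044 and 1085 TPM. The canonical scaffold gene Eif4g1 was at 226 and 218 TPM, 4.80-fold lower. Eif4g3, the other canonical scaffold gene, stood at 33.3 and 32.5 TPM, 6.75-fold below Eif4g1. Eif4g2 was thus the most abundant of the 3, with its interval apart from that of Eif4g1 in each library.

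Eif4e, the cap-binding subunit gene, stood at 196 and 194 TPM. Eif4e2, a cap-binding paralog that does not support eIF4F assembly, followed at 168 and 152 TPM, 1.22-fold lower, and Eif4e3 was at 9.26 and 12.3 TPM, 18.3-fold below Eif4e. Eif4g1 exceeded Eif4e by a log2 ratio of 0.19 ± 0.026, but with protein-coding transcripts alone the order turned, to -0.31. Of the genes for eIF4E-binding repressors, Eif4ebp1 stood at 183 TPM in replicate 1 and 124 in replicate 2, Eif4ebp2 at 73.2 and 71.5 TPM and Eif4ebp3 at 3.50 and 5.36 TPM. Eif4ebp1 was 2.08-fold above Eif4ebp2 (log2 ratio 1.06 ± 0.37), and Eif4e was 1.30-fold above Eif4ebp1 (log2 ratio 0.37 ± 0.39), a difference no larger than its spread between the libraries although the intervals were apart in each. Eif4enif1, encoding the eIF4E transporter, stood at 54.2 and 62.3 TPM. Reads of Eif4ebp3 are uncertain, with a posterior SD of 13.6% and 9.68% of its count, and the annotation places another coding gene on the same strand over it.

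Eif5a was the most abundant factor at 3148 TPM in replicate 1 and 2547 in replicate 2. Its protein carries hypusine and acts when ribosomes stall in elongation as well as at initiation and termination. Its paralog Eif5a2 stood at 10.6 and 12.5 TPM, 246-fold lower (log2 ratio 7.94 ± 0.39). The genes for the enzymes that make hypusine were both expressed, Dhps at 62.5 ± 4.88 TPM and Dohh at 94.96 ± 8.68 TPM (SD, n = 2). Eif5, the activator of GTP hydrolysis by eIF2, was at 224 and 227 TPM, and Eif6, which keeps the large subunit from joining early, at 252 and 211 TPM. Eif5b, encoding the GTPase of subunit joining, was lower at 20.4 and 22.8 TPM.

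**Figure D2:**
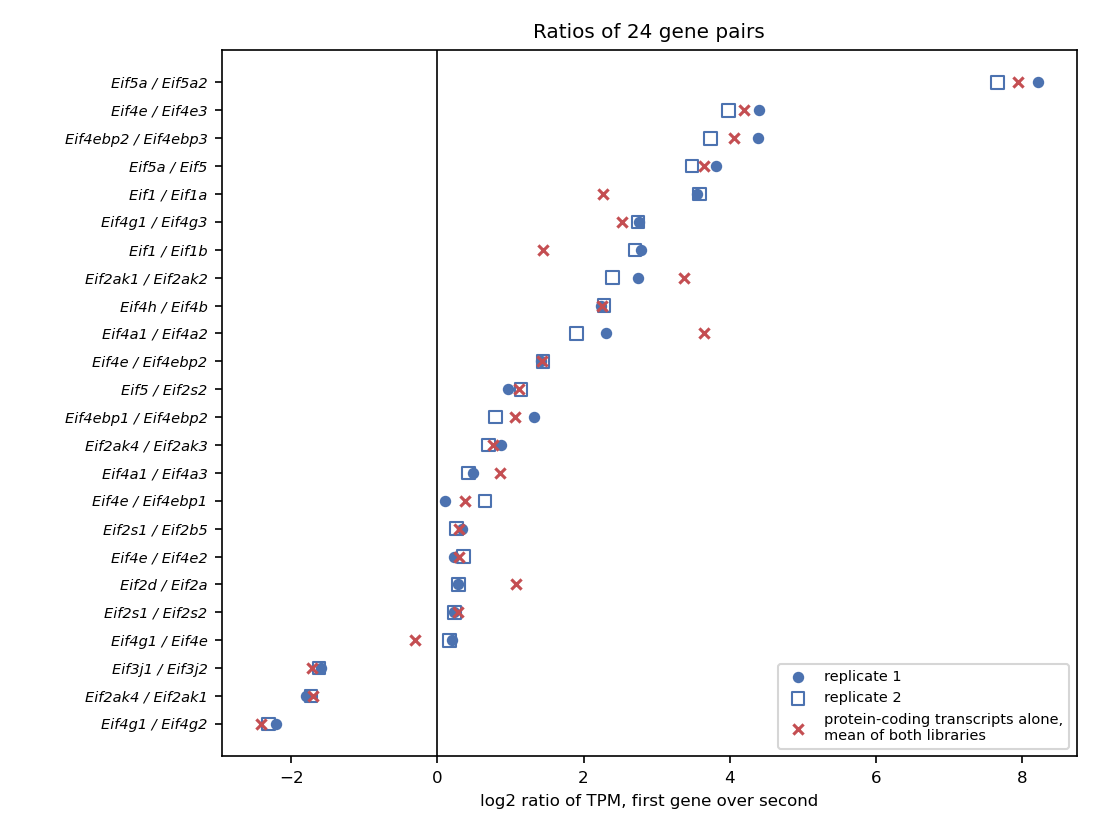
log2 ratio of TPM within 24 gene pairs, first gene over second, with replicate 1 as filled circles, replicate 2 as open squares and the mean over protein-coding transcripts alone as crosses. The cross for Eif4g1 over Eif4e lies at -0.31, on the other side of 0 from both libraries, and that for Eif4a1 over Eif4a2 lies at 3.65, to the right of both.

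All 24 pairs of paralogs or partners had intervals apart in the same direction in both libraries. Of these, 17 were at least 1.5-fold apart in both libraries and 14 at least 2-fold. No share over other gene pairs is given here, so these counts do not set the chosen pairs apart. The intervals carry the estimate's own error and not the spread between pools, so small ratios such as Eif2s1 over Eif2s2 rest on the agreement of 2 pools alone.

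Other genes of the pathway, taken from lists with no Eif symbols, spanned a like range. Of 11 elongation and termination genes 10 were expressed, led by the elongation factor Eef1a1 at 3319 TPM, while no read was assigned to Eef1a2. All 6 genes for poly(A)-binding proteins and their partners were expressed, from the partner genes Paip2b at 15.5 to Paip2 at 335 TPM. So were 6 of 6 initiation helpers, from Dhx29 at 22.3 to Denr at 149 TPM. All 9 genes of mTOR and MAP kinase control were expressed, from Rptor at 14.7 to Rheb at 152 TPM. Of 10 genes of the integrated stress response 9 were, from Atf3 at 1.90 to Asns at 95.2 TPM, and Chac1 was under the threshold at 0.62 TPM. None of these lists had a gene at least 1.5-fold apart between the libraries except the last, in which Atf3 was lower in replicate 2.

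The transcript tables held 263 transcripts of the factors, and the percent of a gene's TPM that each takes was used as its share. For 50 of the 51 factors with counts the same transcript led in both libraries. Among the 31 factors with several transcripts this was 30, beside 91.8% of expressed protein-coding genes with several transcripts. The exception was Eif2a. Eif2a-207, annotated as a target of nonsense-mediated decay, took 45.3% in replicate 1 and 37.6% in replicate 2. The coding transcript Eif2a-201 took 43.4% and 50.9%. The deposited intervals of the pair overlapped in replicate 1 (18.9 to 25.4 TPM and 18.4 to 24.3 TPM) and were apart in replicate 2 (16.2 to 22.8 TPM and 23.0 to 29.0 TPM).

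In Eif2a, Eif4a2 and Eif6 a decay-annotated form lacks 1 or 2 exons of the main coding transcript, and sequences of these forms are shown because the new junction precedes the annotated stop codon. In GENCODE M21 on GRCm38, Eif2a-207 lacks exon 4 of Eif2a-201, a coding exon of 119 nt at chr3:58539528-58539646 on the plus strand. Eif4a2-217 lacks exon 4 of Eif4a2-202, 140 nt at chr16:23109120-23109259 on the plus strand. Neither length is a multiple of 3 (each leaves 2). Eif6-207 lacks 2 exons of 262 nt in all (leaving 1). The skipped exons read 5′ to 3′ in lower case:
Eif2a-201 exon 4: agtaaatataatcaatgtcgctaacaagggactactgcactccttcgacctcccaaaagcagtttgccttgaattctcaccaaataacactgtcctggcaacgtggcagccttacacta
Eif4a2-202 exon 4: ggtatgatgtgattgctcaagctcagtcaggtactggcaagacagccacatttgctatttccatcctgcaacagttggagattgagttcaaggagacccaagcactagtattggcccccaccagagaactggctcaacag
The decay-annotated transcripts read as follows from 20 bases before the new junction to the annotated stop codon, which is in capitals:
Eif2a-207: gcctggagcaatggagaaaacttcTAA
Eif4a2-217: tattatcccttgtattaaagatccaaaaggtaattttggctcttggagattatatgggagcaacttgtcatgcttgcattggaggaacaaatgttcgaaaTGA
Eif6-207: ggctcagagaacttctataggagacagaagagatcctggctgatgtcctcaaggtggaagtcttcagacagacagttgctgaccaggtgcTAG
The stop begins 4 bases after the junction in Eif2a-207, 80 bases after it in Eif4a2-217 and 70 bases after it in Eif6-207. The reading frame before it held 59, 96 and 59 codons. Eif4a2-217 took 12.6% and 10.6% of Eif4a2 TPM, and Eif6-207 took 12.3% and 11.4% of Eif6 TPM.

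Transcripts annotated in a noncoding class (decay, retained intron or processed transcript) took 10% or more of the TPM in both libraries in 13 of 51 factors. That is a smaller portion than the 31.4% of expressed protein-coding genes that did so, and such transcripts are not particular to the factors. The noncoding share was 66.9% and 68.8% in Eif4a2, which had 24 transcripts: retained introns took 38.4% and 42.2%, and decay-annotated transcripts 28.5% and 26.6%. In Eif1 it was 59.1% and 59.5%, and Eif1 was the only factor led by a noncoding transcript in both libraries. That transcript, Eif1-202, is 383 nt long and took 42.6% and 42.9% of TPM, against 39.8% and 39.3% for the coding Eif1-201, and their intervals overlapped in replicate 1. Both Eif2a and Eif4a2 overlap a gene on the opposite strand, Serp1 at 242 and 269 TPM and Rfc4 at 191 and 189 TPM, and the part of such reads in the transcript shares was not tested. Eif4g1 had 20.95% and 19.7% in a single decay-annotated transcript, Eif4g1-222.

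**Figure D3:**
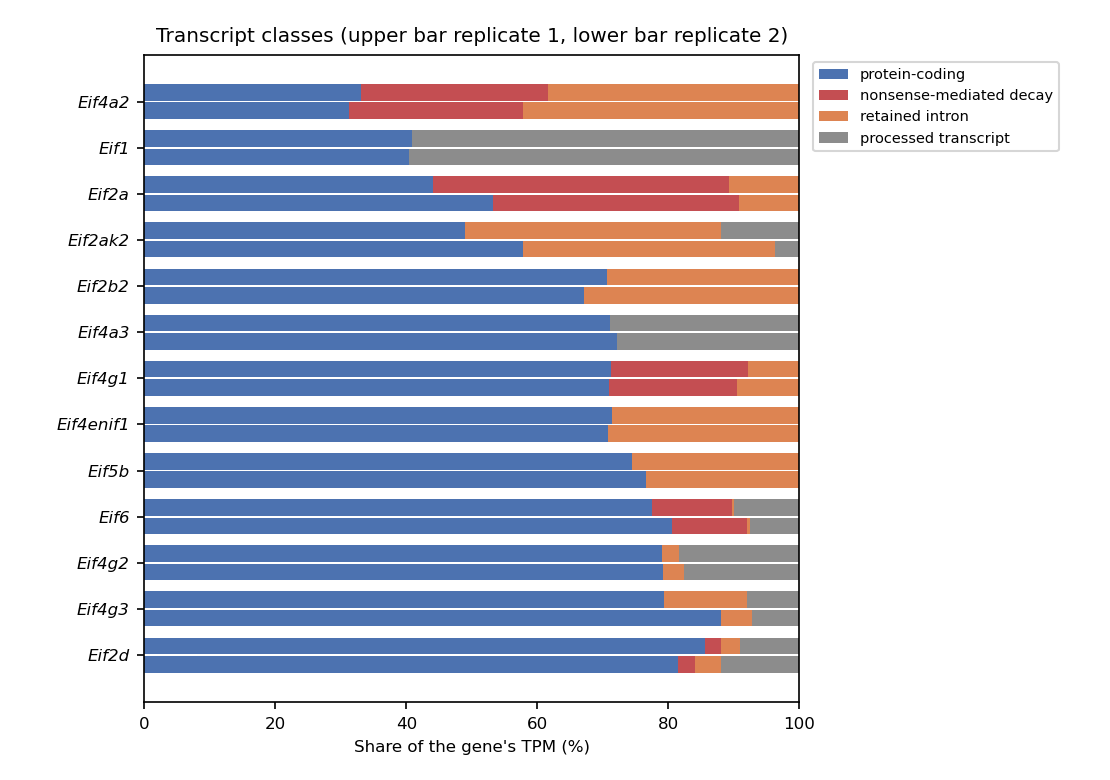
Share of each gene's TPM (percent) by annotated transcript class for the 13 factors with 10% or more in noncoding classes in both libraries. The upper bar of each pair is replicate 1 and the lower bar replicate 2; Eif4a2 and Eif1 have protein-coding shares of 33.2% and 40.9% in replicate 1, the lowest of the 13.

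Because a short transcript reaches a high TPM from few reads, the share was also taken over expected counts, an alternative chosen after seeing the data. By counts, 6 of the 13 factors stayed at 10% or more in both libraries. No share by counts over all expressed protein-coding genes is given here, so whether 6 is many or few is not known. Eif4a2 kept 48.1% and 49.1% and Eif2a 52.6% and 44.9%. Eif1 fell to 26.6% and 26.9%, and Eif4g2 went from 20.9% and 20.8% of TPM to under the threshold. At the other end, 20 factors with counts had a single transcript in the tables, among them Eif4e, Eif4b, Eif4h and Eif4ebp1, so nothing can be said of their splicing. Eif2b4 was led at 51.1% and 45.4% by a transcript that is not in the annotation used for names. Such transcripts took 54.3% and 53.9% of its TPM, and with no class assigned they were not counted as noncoding.

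Few of these genes were 1.5-fold or more apart between the 2 pools. Differences are replicate 2 minus replicate 1 on the log2 scale, from counts scaled by TMM, and the intervals cover counting error only. Of 51 factors tested, 50 had a mean count of 100 or more. All genes tested needed only 10, so their shares are not matched to the factors for depth. Among the 51 factors, 1 was at least 1.5-fold apart, where 15.5% of all 16860 genes tested were. It was lower in replicate 2 (4.98% of all genes), 0 factors were that much higher (10.5% of all genes), and 0 were 2-fold apart in either direction (6.34% of all genes). That gene was Eif4ebp1, with 4300 and 3035 expected counts and a difference of -0.70 (95% interval -0.77 to -0.63). It stayed lower in replicate 2 under every scaling tried. The 6 scalings rest on the same reads, so this sameness is not independent support. Eif4ebp1 missed 1.5-fold in 3 of the 6 scalings: deposited TPM (-0.56), posterior mean TPM (-0.56) and spike-ins (-0.45). Eif2ak2 came nearest in the other direction, at 0.58 (0.39 to 0.77), and Eif4ebp3, with few counts, was at 0.47 (0.61 with deposited TPM). Spike-in scaling put both past 1.5-fold, at 0.83 and 0.73.

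**Figure D4:**
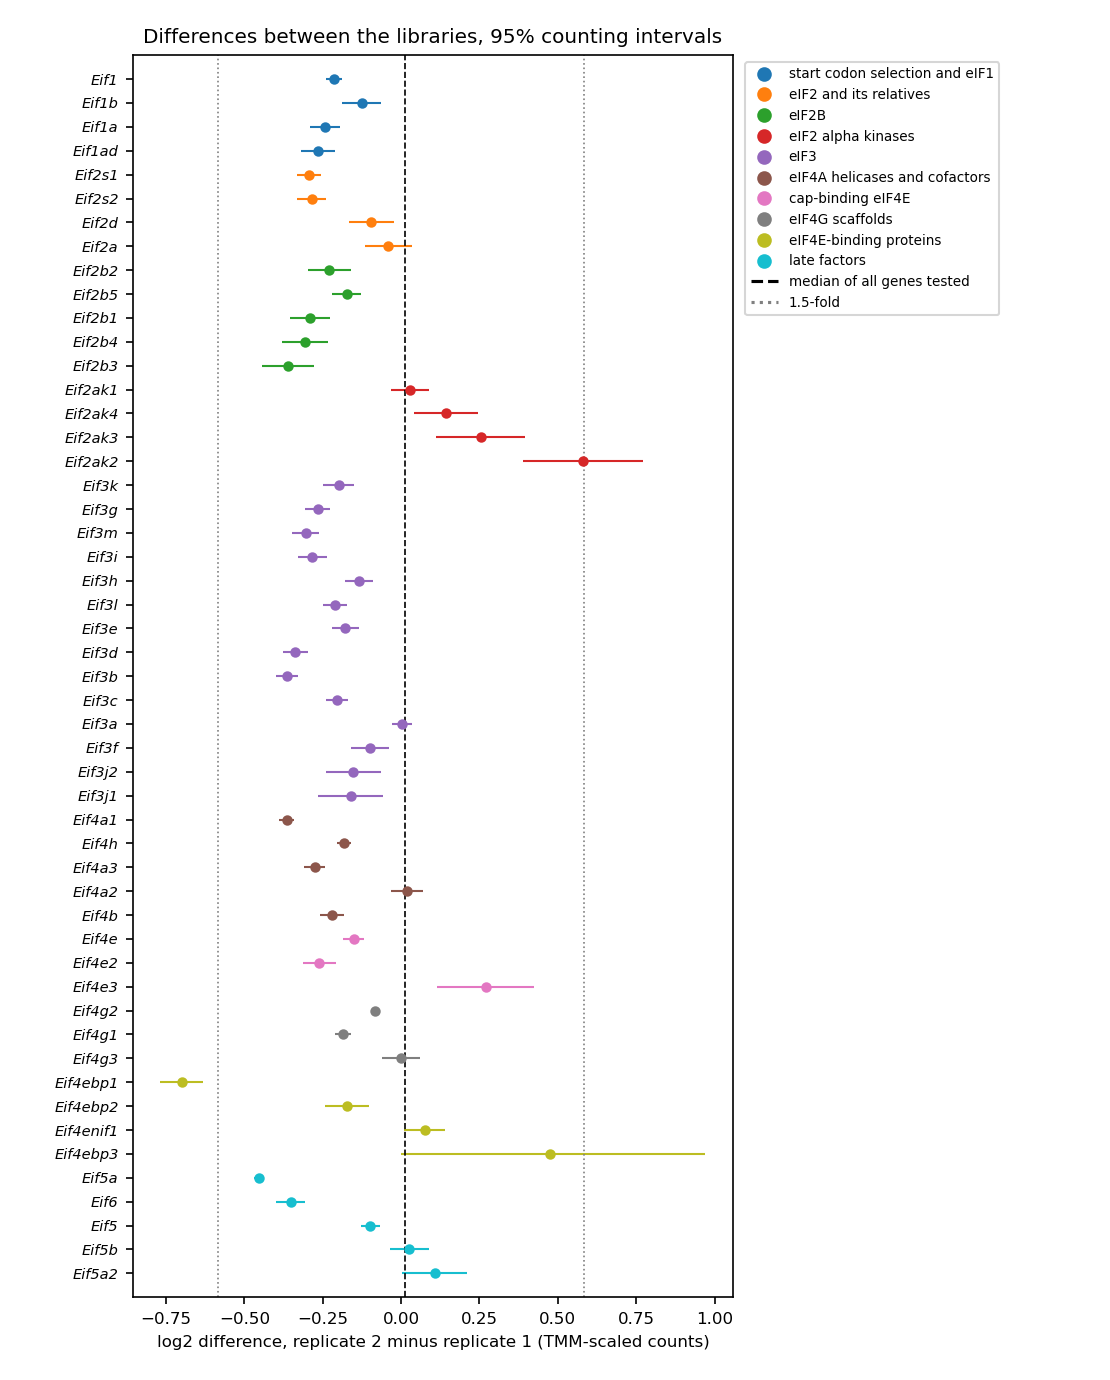
log2 difference between the libraries, replicate 2 minus replicate 1 of TMM-scaled counts, for 51 factors ordered by role. Bars are 95% counting intervals, the dashed line is the median of all genes tested (0.014) and the dotted lines mark 1.5-fold; only Eif4ebp1 lies wholly beyond a dotted line.

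Counting intervals lay below 0 for 38 factors (26.2% of all genes) and above 0 for 7 (27.2% of all genes), and crossed 0 for 6. High counts give narrow intervals, and these shares were not matched for depth either. The median factor differed by -0.18 and the median gene by 0.014, with 39 factors lower and 12 higher in replicate 2 under TMM; spike-in scaling added 0.25 to every gene, which put the median gene at 0.27 and turned the split to 17 lower and 34 higher. The factors' median minus the median of all genes was -0.20 with TMM, which any other scaling by 1 factor per library leaves the same by construction. It was -0.20 with deposited TPM too. Under TMM, 73.3% of 3459 genes over 50 TPM were lower in replicate 2, as were 37 of 40 factors at that level, and with spike-in scaling 20.1% of those genes were. At or under 50 TPM, 41.6% of 13401 genes and 2 of 11 factors were lower under TMM.

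By role, all 5 eIF2B genes and 13 of 14 eIF3 genes had intervals below 0 under TMM, but with spike-in scaling 3 of 5 and 5 of 14 were lower in replicate 2. All 4 eIF2 alpha kinase genes were higher in replicate 2 under each of the 6 scalings tried, 3 of them with intervals above 0 under TMM. All 4 lie at or under 50 TPM, where higher in replicate 2 was the more common direction of all genes, with 41.6% lower under TMM and 16.8% under spike-in scaling. Their median difference was 0.20 with TMM and 0.45 with spike-ins. Scalings by 1 factor per library shift every gene by the same amount, so the kinase genes' shared direction under them is not independent support. Eif5a differed by -0.45, Eif4a1 and Eif3b by -0.36 each and Eif2b3 by -0.36. Eif4e3 differed by 0.27, Eif2ak3 by 0.25, Eif2ak4 by 0.14 and Eif5a2 by 0.11. Under spike-in scaling Eif5a remained lower, at -0.20. Red cell markers summed to less and muscle markers to more in replicate 2, and both marker lists had no gene at 0. Of the 7 limb markers, Tbx4 and Pitx1 were higher in replicate 2 by 0.94 and 0.79 on the log2 scale. Prrx1 differed by 0.25 and Hoxa10 by 0.019, while Fgf8, Tbx5 and Msx1 differed by -0.54, -0.26 and -0.18. Among surface ectoderm markers Krt14 was higher by 2.03, while Krt8 and Krt18 differed by -0.67 and -0.70. The part of these cell types and regions, and of pool and library, in the factors' differences was not tested.

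RefSeq promoter windows on GRCm38.p6, from 250 bases before to 50 after a start, were matched to 40 of the 52 factors. They were searched on both strands for 5 motifs. The E-box CACGTG, which MYC and related factors can bind, was found in 10 of 40 factors (25%), in 11.97% of 9324 expressed protein-coding genes with a window and in 8.09% of all 27025 genes with one. The ETS motif CCGGAAG was found in 15 factors (37.5%) and in 20.9% of the expressed genes. The GC box GGGCGG (75% against 71.1%), CCAAT (37.5% against 43.6%) and TATAAA (7.5% against 8.27%) were near the share of expressed genes. A gene with several windows has more chances to hold a motif, and a match is only a match of letters. Eif4e held 2 E-boxes before the same start, and Eif5a held 2 in windows of different starts. Of each pair, the one nearer to the start of its own window is printed. The E-box is shown in capitals with 12 bases on each side for Eif4e, Eif4g1 and Eif4a1 of eIF4F and for Eif5a:
Eif4e, chr3:138527192-138527221, plus strand: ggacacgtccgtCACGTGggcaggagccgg
Eif4g1, chr16:20672661-20672690, plus strand: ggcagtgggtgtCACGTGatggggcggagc
Eif4a1, chr11:69672595-69672624, minus strand: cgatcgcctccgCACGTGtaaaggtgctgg
Eif5a, chr11:69921443-69921472, minus strand: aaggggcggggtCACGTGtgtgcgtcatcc
Their first E-box base lay 64, 54, 189 and 74 bases before the RefSeq start of the window that held it.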

How the data were processed

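Total RNA-seq tables of 2 limb libraries were used, a gene and a transcript table for each. The members, gene lists, pairs and motifs were chosen with earlier results of these data known. Expected counts, which need not be whole, and TPM were deposited by the authors per gene and per transcript, and per the file headers the tables also hold a posterior mean TPM. The isoform percent, the percent of a gene's TPM in a transcript, was deposited by the authors too. The TPM interval bounds, treated as a score, were deposited without a stated level. Per the sample text files the build is mm10 and the annotation GENCODE M4; not given in the sources used here are the aligner, the quantifier and any use of strand in counting. Reads of genes that overlap on opposite strands (17 factors, 8 of them with a partner at 1000 or more counts in both libraries) may therefore be mixed.

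Names, biotypes and positions were taken from GENCODE M21 (GRCm38), which named 98.0% of Ensembl rows. Numeric and spike-in rows stayed out of library sizes. Expected counts were rounded and scaled by TMM in edgeR 4.0.16 (R 4.3.3), with DESeq2 1.42.0 size factors as an alternative, and genes needed a mean count of 10. Exact binomial 95% intervals cover counting error only, since the labels name no molecular identifiers. Other steps used Python 3.11.15. The interval step was tested on simulated counts with counting error alone and no spread between pools. That test therefore checks the code and does not show how the intervals cover real pools. With 2 libraries no p-value is given, and the spread is between these pools. Any member could be named. Pair members, the highest and lowest of each role, the 5 largest and 5 smallest differences at a mean count of 100, and members whose leading transcript differed were described in full, and other genes came from lists or overlapped a member.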

Additional observations from a re-analysis of the deposited data

How the results depend on the processing

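No paired analysis was possible because the labels give only 1 group. Both calls needed both libraries, so leaving out 1 could not lower the count of expressed factors (51) or of pairs apart (24). Neither count could rise, because all 24 pairs were called and Eif4e1b had no reads in either library. Their sameness without either replicate is therefore no test. The median level of 112 TPM became 110.1 with posterior mean TPM, 126 over named nuclear genes alone (fewer genes share the total), 109 with protein-coding transcripts alone, and 114 to 115 without 1 replicate. Pairs at least 2-fold apart numbered 14. With protein-coding transcripts alone 12 of 24 pair ratios moved by less than their SD, 11 moved further and 1 turned, Eif4g1 over Eif4e from 0.19 to -0.31. Most of the 12 joined genes whose TPM lay wholly in protein-coding transcripts, such as Eif4h and Eif4b. Those ratios could not move, so they do not show stability. The median difference between libraries of -0.18 was -0.049 with deposited TPM, -0.054 with posterior mean TPM, -0.11 with total counts and 0.071 with spike-in scaling, and the cause was not tested. Factors at least 1.5-fold apart numbered 1 with TMM (Eif4ebp1), 1 with deposited or posterior mean TPM (Eif4ebp3), 2 with spike-ins (Eif2ak2, Eif4ebp3) and 2 with total counts (Eif2ak2, Eif4ebp1). The share of all genes called is given here for TMM alone, and spike-in scaling raised every gene by 0.25. Noncoding shares of 10% or more held in 13 factors by TPM and 6 by counts, the latter with no share over all genes beside it. Depth limits mainly Eif4ebp3.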
